A study of Mus musculus with 12 samples.

Results

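The genes of sphingosine-1-phosphate (S1P) signaling and its supply were followed in hematoma-adjacent brain tissue of mice with a microglial knockout of Fabp4 and of floxed control mice. The group held the 5 S1P receptors (S1pr1, S1pr2, S1pr3, S1pr4 and S1pr5), the sphingosine kinases Sphk1 and Sphk2, the exporter Spns2, the alkaline ceramidase Acer2 and the S1P lyase Sgpl1, and all 10 were found by symbol among the 21956 genes of the count table. The 10 were chosen by the measured changes of Acer2 and S1pr3, which stood out among changed genes in these same data, so both are described here with values and no test, and tests are given for the other 8. Each of the 12 mice gave 1 library, with 3 mice to a group, and the groups were Sham-Fabp4flox/flox, Sham-Fabp4CKO, ICH-Fabp4flox/flox and ICH-Fabp4CKO. Intracerebral hemorrhage (ICH) was produced by collagenase injected into the right striatum, sham mice had the same operation without collagenase, and the tissue around the hematoma was taken 48 h after ICH. All 4 groups carried the floxed Fabp4 alleles. The Fabp4CKO mice were Fabp4flox/flox: TMEM119creER/+, in which a tamoxifen-dependent Cre under the microglial gene Tmem119 removes Fabp4, and they received tamoxifen for consecutive days before a waiting period and the operation. Whether the floxed controls received tamoxifen, and the age of the transgenic mice, are not given in the sources used here. The comparisons asked how hemorrhage changed the transcripts and whether the loss of microglial Fabp4 altered them.

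S1P is made inside the cell. Ceramidases release sphingosine from ceramide, sphingosine kinases phosphorylate it, Spns2 carries the product out of the cell, and Sgpl1 destroys it irreversibly. Outside the cell, S1P acts on G protein-coupled receptors that differ in the cells that carry them: S1pr1 is abundant on endothelial cells and astrocytes and holds the vascular barrier through Gi and Rac, S1pr2 couples to G12/13 and loosens that barrier, S1pr3 is known from vascular cells and reactive astrocytes, S1pr4 is largely a receptor of blood leukocytes, and S1pr5 is a receptor of oligodendrocytes and natural killer cells.

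The libraries held between 15650813 and 22406216 counts. Fabp4, the targeted gene, had counts of 2, 1 and 2 in the Sham-Fabp4flox/flox mice, 0, 0 and 0 in the Sham-Fabp4CKO mice, 46, 63 and 24 in the ICH-Fabp4flox/flox mice and 5, 3 and 10 in the ICH-Fabp4CKO mice, in the order of mouse 1, 2 and 3. In sham tissue Fabp4 was at or under the floor of 3 counts in every library, so the knockout could be seen only after ICH. Mitochondrial genes took 16.3% of the counts of ICH-Fabp4flox/flox mouse 1 and 7.90% to 11.9% in the others, and ICH-Fabp4CKO mouse 1 had 1 read on 4 Y-linked genes where the other libraries had 1302 to 2251. Markers of neurons, striatal projection neurons, astrocytes, oligodendrocytes and microglia were detected in every group. The summed striatal projection neuron markers were uneven in sham tissue. They ranged from 1030 to 3180 counts per 1000000 in Sham-Fabp4flox/flox and from 2180 to 3790 in Sham-Fabp4CKO mice. Detection of the markers thus does not show that the tissue taken was alike between mice.

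RefSeq promoter windows of GRCm38.p6 covered 9 of the 10 genes, and S1pr1 had no entry. The 250 bases before the annotated start site are shown for the pair that prompted the choice of genes (S1pr3 and Acer2) and for the pair whose levels ran together across the ICH libraries (S1pr2 and Sgpl1), 5′ to 3′ on the strand of the gene, with matches to the motifs named next in capitals.
S1pr3, chr13:51408368-51408617, plus strand: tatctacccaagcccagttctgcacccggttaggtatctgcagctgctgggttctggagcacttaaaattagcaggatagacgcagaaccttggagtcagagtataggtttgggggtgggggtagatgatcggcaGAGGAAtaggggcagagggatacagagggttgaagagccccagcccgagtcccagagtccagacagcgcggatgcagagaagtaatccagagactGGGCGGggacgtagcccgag
Acer2, chr4:86874164-86874413, plus strand: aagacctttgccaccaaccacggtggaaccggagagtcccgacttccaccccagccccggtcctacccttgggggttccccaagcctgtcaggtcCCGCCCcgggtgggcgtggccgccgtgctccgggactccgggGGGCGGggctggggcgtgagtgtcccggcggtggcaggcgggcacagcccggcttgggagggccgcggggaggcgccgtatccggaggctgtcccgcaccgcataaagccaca
S1pr2, chr9:20976794-20977043, minus strand: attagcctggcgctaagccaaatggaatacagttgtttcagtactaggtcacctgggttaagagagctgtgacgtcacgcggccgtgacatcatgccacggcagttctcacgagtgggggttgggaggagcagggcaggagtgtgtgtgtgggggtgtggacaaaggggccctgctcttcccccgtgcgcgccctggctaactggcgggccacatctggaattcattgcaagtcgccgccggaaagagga
Sgpl1, chr10:61147685-61147934, minus strand: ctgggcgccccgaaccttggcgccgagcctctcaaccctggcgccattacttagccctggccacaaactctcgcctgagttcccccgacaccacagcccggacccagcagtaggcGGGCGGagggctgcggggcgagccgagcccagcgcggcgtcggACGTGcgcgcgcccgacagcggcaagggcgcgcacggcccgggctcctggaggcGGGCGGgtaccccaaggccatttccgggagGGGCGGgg
The motifs were searched on both strands in windows reaching from 250 bases before to 50 bases after the start site. They were the AP-1 site TGANTCA, found in 7.81% of all 32851 windows, the NF-kB site (1.63%), the STAT site TTCNNNGAA (8.30%), the PU.1 core GAGGAA (28.3%), the GC box GGGCGG (35.7%), CCAAT (37.4%), TATAAA (13.6%) and the hypoxia element core ACGTG (19.6%). In the sequences printed, S1pr3 held 1 PU.1 core and 1 GC box, Acer2 held 2 GC boxes, S1pr2 held none of the motifs before its start site, and Sgpl1 held 3 GC boxes and 1 hypoxia element core. After the start site lay an ACGTG in S1pr3, a GC box in S1pr2, and a GC box and a CCAAT in Sgpl1. None of these 4 windows held the AP-1, NF-kB or STAT letters, which says only that the letters are not there. Guanine and cytosine made up 56.4% of the S1pr3 stretch, 73.2% of that of Acer2, 59.2% of that of S1pr2 and 74.8% of that of Sgpl1.

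In the sham-operated striatal region, S1pr1 was by far the main receptor transcript. Per kilobase of exon, in counts per 1000000 library counts (CPM) per kilobase, the mean levels in Sham-Fabp4flox/flox tissue were 48.4 for S1pr1, 13.7 for S1pr5, 1.83 for S1pr3, 0.451 for S1pr2 and 0.160 for S1pr4. S1pr1 made up 74.9% ± 7.47 (SD, n = 3 mice) of the summed receptor level and S1pr5 made up 21.3% ± 6.96, so that S1pr2, S1pr3 and S1pr4 were minor transcripts. Among the enzymes, Sphk2 stood at 6.25 CPM per kilobase and Sphk1 at 0.188, and the ratio of Sphk2 to Sphk1 ranged from 15 to 108 over the 6 sham mice. Spns2 stood at 10.2, Sgpl1 at 5.86 and Acer2 at 1.63 CPM per kilobase. Bulk tissue gives no cell of origin, and in such samples fewer cells of a type and less RNA per cell cannot be told apart.

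After hemorrhage in floxed mice, 5 of the 8 tested genes passed an adjusted p of 0.05 (S1pr1, S1pr2, S1pr4, Sphk1 and Sgpl1, all higher in ICH-Fabp4flox/flox). S1pr5, Sphk2 and Spns2 did not pass. Of all 14719 genes tested in this comparison, 26.2% rose and 19.3% fell, 45.6% in all, so hemorrhage moved a large part of the transcriptome. The median log2 fold change of the 8 was 1.31, beside 0.0192 over all genes. Here and below, p-values come from the quasi-likelihood F-test of edgeR and were adjusted over all genes tested by the method of Benjamini and Hochberg.

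S1pr3, which prompted the choice of genes, had CPM of 9.19, 8.62 and 6.73 in the Sham-Fabp4flox/flox mice and 96.6, 175.7 and 84.1 in the ICH-Fabp4flox/flox mice. The lowest ICH library was thus several times above the highest sham library, and the ratio of the group means was 14.5. Without ICH-Fabp4flox/flox mouse 2, the library with the most S1pr3, the log2 fold change was 3.45 and with it 3.87. Acer2, which releases sphingosine from ceramide in the Golgi, had CPM of 13.7, 14.6 and 6.83 in sham and 78.8, 54.7 and 49.5 after ICH, a ratio of means of 5.21 without overlap of the groups. Over all genes tested, 62% had groups that did not overlap in this comparison.

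Among the other receptors, S1pr2 had CPM of 3.97, 3.76 and 3.05 in Sham-Fabp4flox/flox and 21.9, 22.5 and 12.6 in ICH-Fabp4flox/flox mice. It rose by a log2 fold change of 2.42 (SE 0.276, adjusted p = 0.000801), with all ICH mice above all sham mice. S1pr4 was scarce throughout, with 6, 5 and 11 counts in sham and 32, 25 and 16 after ICH, and rose by 1.96 (SE 0.527, adjusted p = 0.0205). S1pr1 had CPM of 137.5, 134.1 and 170.6 in sham and 189.0, 205.6 and 205.5 after ICH, so the most abundant receptor changed least among those that passed, by 0.46 (SE 0.154, adjusted p = 0.0438). S1pr5 had CPM of 37.7, 42.1 and 22.6 in sham and 49.2, 61.4 and 49.1 after ICH. The S1pr5 groups did not overlap, but the difference of 0.66 (SE 0.242) did not pass (adjusted p = 0.0589).

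On the side of synthesis and removal, Sgpl1 had CPM of 42.0, 34.5 and 31.4 in sham and 167.5, 165.7 and 110.8 after ICH. The lyase rose by 2.06 (SE 0.217, adjusted p = 0.000626). Sphk1, the inducible kinase, had 38, 10 and 6 counts in sham and 156, 66 and 27 after ICH, so that the sham mouse with the most Sphk1 exceeded the ICH mouse with the least, and it passed narrowly at 2.53 (SE 0.859, adjusted p = 0.0458). Sphk2, the more abundant and constitutive kinase, had CPM of 23.8, 26.2 and 28.0 against 34.3, 34.1 and 29.4 and a log2 fold change of 0.34 (95% interval 0.0291 to 0.660, adjusted p = 0.0704). Spns2 had CPM of 45.9, 43.5 and 35.0 against 65.2, 50.3 and 46.2, which gave 0.40 (95% interval -0.0395 to 0.833, adjusted p = 0.117). Sgpl1 thereby went from 0.752 to 1.12 times the summed level of both kinases, per kilobase, in Sham-Fabp4flox/flox mice to 2.44 to 2.98 times in ICH-Fabp4flox/flox mice. S1pr2 and Sgpl1 kept their calls whichever library was left out. The count of 5 became 2 without Sham-Fabp4flox/flox mouse 2, ICH-Fabp4flox/flox mouse 1 or ICH-Fabp4flox/flox mouse 2 and 3 without Sham-Fabp4flox/flox mouse 1, with S1pr1, S1pr4 or Sphk1 losing the call, in fits that called 28% to 36.2% of all genes.

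**Figure D1:**
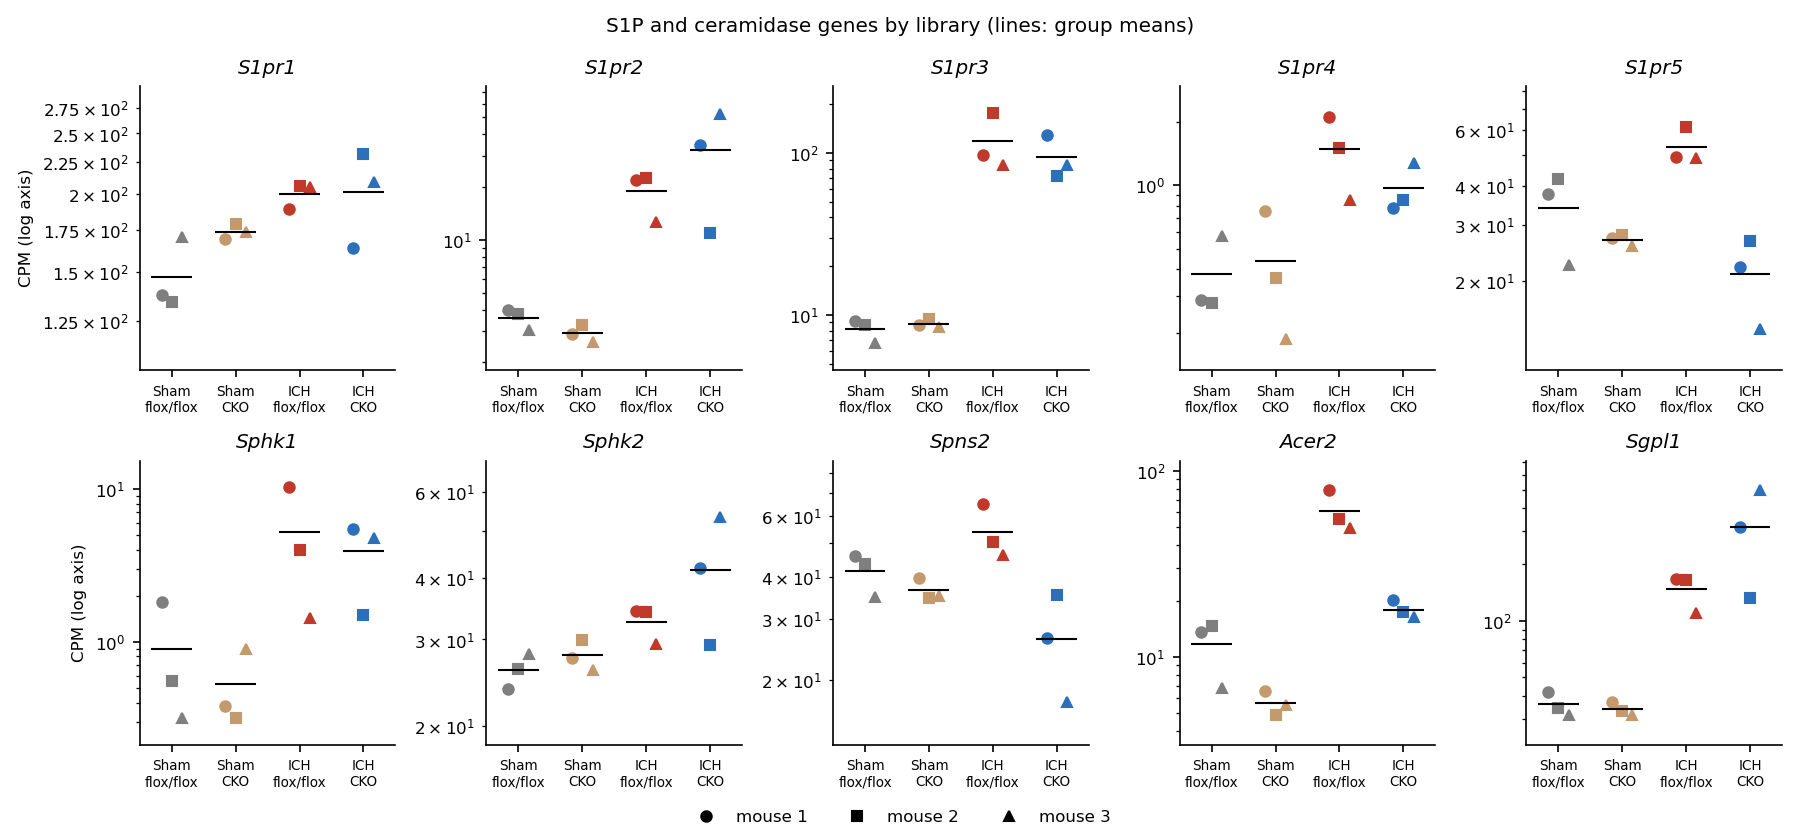
Level of each gene in the 12 libraries, in CPM on log axes that differ between panels, with 1 symbol per mouse and a line at each group mean. S1pr3, S1pr2 and Sgpl1 show sham and ICH libraries apart in both genotypes, and S1pr5, Spns2 and Acer2 show the ICH-Fabp4CKO libraries below the ICH-Fabp4flox/flox libraries.

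The makeup of the receptor transcripts shifted with hemorrhage. The summed receptor level per kilobase was 64.5 ± 2.33 (SD, n = 3) in Sham-Fabp4flox/flox, 70.4 ± 1.90 in Sham-Fabp4CKO, 117 ± 15.9 in ICH-Fabp4flox/flox mice, and it ranged from 96 to 105 in ICH-Fabp4CKO mice. S1pr3 made up 2.24% to 3.27% of that sum in the sham mice of both genotypes and 15.3% to 29.9% in the ICH mice of both genotypes, while the share of S1pr1 was 56.9% ± 6.33 in ICH-Fabp4flox/flox and 65.7% ± 8.72 in ICH-Fabp4CKO mice. These shares follow from the S1pr3 values that chose the genes and are a description. The S1pr5 share was 18.2% to 18.4% in ICH-Fabp4flox/flox and 5.62% to 10.3% in ICH-Fabp4CKO mice, and the S1pr2 share was 1.46% to 2.57% and 1.31% to 6.51%. S1pr2 was at no point a main receptor transcript, even where its fold change was among the highest.

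**Figure D2:**
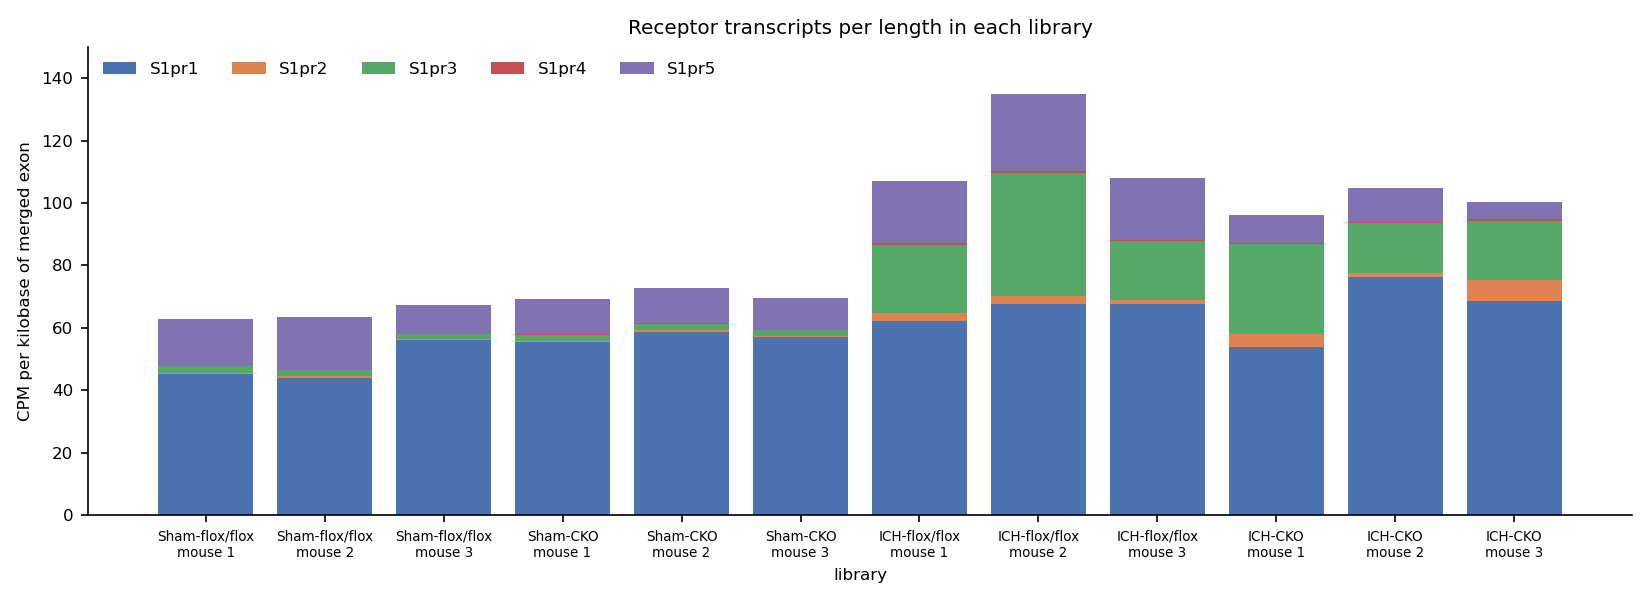
Stacked levels of the 5 receptor transcripts in each library, in CPM per kilobase of merged exon, by library in the order of the groups. The S1pr3 segment is thin in all 6 sham libraries and broad in all 6 ICH libraries, and the S1pr5 segment is smaller in the ICH-Fabp4CKO than in the ICH-Fabp4flox/flox libraries.

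In Fabp4CKO mice, hemorrhage was again accompanied by more S1pr2, Sgpl1 and Sphk1, and the spread between mice was wider. Of the 8 tested genes these 3 passed, all higher, where 24.5% of the 14737 genes tested rose and 11.1% fell, 35.6% in all. S1pr2 had CPM of 2.88, 3.27 and 2.62 in Sham-Fabp4CKO and 34.9, 10.9 and 52.1 in ICH-Fabp4CKO mice and rose by 3.49 (SE 0.572, adjusted p = 0.00983). Sgpl1 had CPM of 37.1, 33.3 and 31.6 against 315.4, 131.8 and 497.4 and rose by 3.23 (SE 0.479, adjusted p = 0.00801). In both genes ICH-Fabp4CKO mouse 2 was the lowest of its group and still above every sham mouse. Sphk1 had 8, 7 and 19 counts in sham and 84, 28 and 86 after ICH and rose by 2.89 (SE 0.639, adjusted p = 0.0209). The count of 3 fell to 1 without Sham-Fabp4CKO mouse 1 and to 0 without Sham-Fabp4CKO mouse 2 or mouse 3, where S1pr2 and Sgpl1 had adjusted p-values between 0.0509 and 0.0564 in the edgeR fits, and rose to 6 without ICH-Fabp4CKO mouse 2. The share of all genes called moved in the same way, to between 5.03% and 5.66% without a Sham-Fabp4CKO mouse and to 67.5% without ICH-Fabp4CKO mouse 2.

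The remaining genes did not pass in Fabp4CKO mice. S1pr1 differed by 0.23 (95% interval -0.159 to 0.622), S1pr4 by 1.17 (-0.142 to 2.48), S1pr5 by -0.34 (-0.930 to 0.241), Sphk2 by 0.59 (0.0464 to 1.13, adjusted p = 0.0786) and Spns2 by -0.45 (-1.08 to 0.187). S1pr3 had CPM of 8.61, 9.48 and 8.39 in Sham-Fabp4CKO and 128.3, 71.7 and 84.7 in ICH-Fabp4CKO mice, a ratio of means of 10.8. Acer2 had CPM of 6.53, 4.85 and 5.53 and of 20.1, 17.4 and 16.3, a ratio of 3.18. Both groups of each gene stood apart, as did those of 62.4% of all genes tested in this comparison.

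The comparison of the genotypes after hemorrhage asked whether the loss of microglial Fabp4 altered these levels. In the edgeR test no gene of the 14600 tested passed, so 0% was called, and none of the 8 did. At an unadjusted p under 0.05 the members S1pr5 and Spns2 stood out, 2 of 8 where 12.2% of all genes did. S1pr5 had CPM of 49.2, 61.4 and 49.1 in ICH-Fabp4flox/flox and 22.1, 26.8 and 14.1 in ICH-Fabp4CKO mice, a log2 fold change of -1.35 (SE 0.264, adjusted p = 0.295 in edgeR). Spns2 had CPM of 65.2, 50.3 and 46.2 against 26.4, 35.4 and 17.3, a log2 fold change of -1.04 (SE 0.294, adjusted p = 0.328 in edgeR). In both, all ICH-Fabp4CKO mice were below all ICH-Fabp4flox/flox mice, as groups did not overlap in 19.8% of all genes tested. DESeq2 called 578 genes (3.96%) in this comparison and S1pr5 among them (adjusted p = 0.00133), with Spns2 just outside (adjusted p = 0.0514), and a single edgeR fit of all 12 libraries called S1pr5 (adjusted p = 0.0338) and Spns2 (adjusted p = 0.0476) among 362 genes (2.4%).

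Acer2, whose values chose the genes, had a log2 fold change of -1.77 between the genotypes after ICH, given as a description only. Its CPM of 78.8, 54.7 and 49.5 in ICH-Fabp4flox/flox stood beside 20.1, 17.4 and 16.3 in ICH-Fabp4CKO mice, so that the mean was 3.40 times higher in the floxed mice. The Acer2 groups did not overlap, as was so for 19.8% of all genes tested. S1pr3 overlapped between the genotypes, with 96.6, 175.7 and 84.1 against 128.3, 71.7 and 84.7 CPM. Its log2 difference of -0.33 became 0.06 without ICH-Fabp4flox/flox mouse 2. Sgpl1 was higher by 1.08 in ICH-Fabp4CKO mice (95% interval -0.0503 to 2.21, adjusted p = 0.423), with 315.4 and 497.4 CPM in mice 1 and 3 and 131.8 in mouse 2, inside the floxed range of 110.8 to 167.5. S1pr2 was likewise above the floxed range in mice 1 and 3, but at 10.9 CPM mouse 2 was below it (12.6 to 22.5 CPM), and the difference was 0.77 (95% interval -0.536 to 2.08). For S1pr1 the difference was 0.01 (-0.451 to 0.465), for S1pr4 -0.61 (-1.71 to 0.493), for Sphk1 -0.42 (-2.28 to 1.43) and for Sphk2 0.34 (-0.227 to 0.908), intervals that reach to more than a 1.5-fold difference for S1pr4, Sphk1 and Sphk2.

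**Figure D3:**
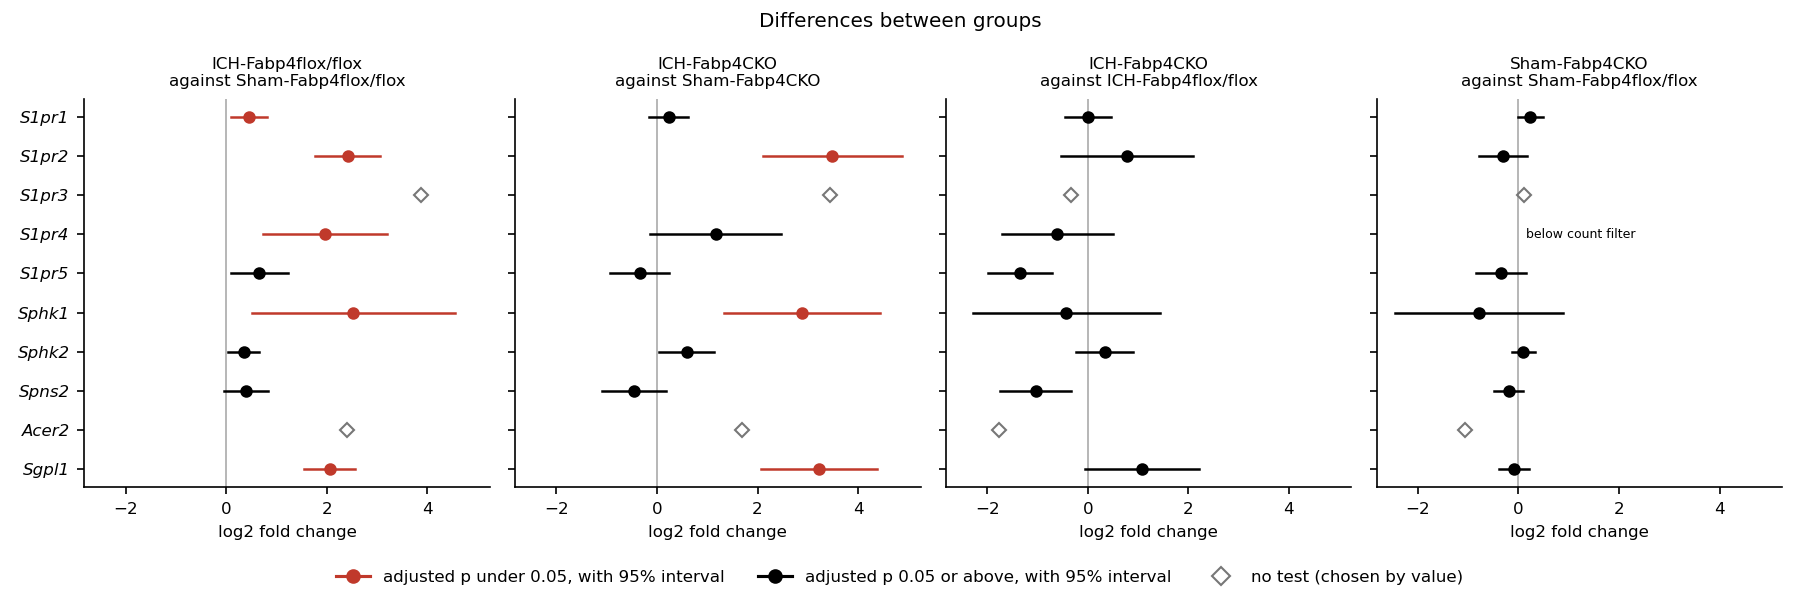
Log2 fold change of each gene in the 4 comparisons of groups, with 95% intervals from edgeR for the tested genes and open diamonds without intervals for S1pr3 and Acer2. Red marks an adjusted p under 0.05, which 5 genes reached in floxed mice after ICH and 3 in Fabp4CKO mice after ICH, and no gene reached between the genotypes.

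Cell type markers moved with several of these genes. The 8 oligodendrocyte markers summed to 18700 to 26900 CPM in ICH-Fabp4flox/flox and 7380 to 11700 CPM in ICH-Fabp4CKO mice, beside 8680 to 15200 CPM in Sham-Fabp4flox/flox and 10500 to 11300 CPM in Sham-Fabp4CKO mice, and 7 of the 8 had an unadjusted p under 0.05 between the genotypes after ICH with 0 passing adjustment. S1pr5 per 1000 CPM of these markers was 1.83 to 2.62 CPM (median 2.57) in ICH-Fabp4flox/flox and 1.91 to 2.29 CPM (median 1.96) in ICH-Fabp4CKO mice. These ranges overlapped, where S1pr5 itself did not, but only through the lowest floxed mouse. In sham the ranges were apart where S1pr5 itself overlapped, with 2.60 to 2.77 CPM in Sham-Fabp4flox/flox and 2.45 to 2.47 CPM in Sham-Fabp4CKO mice. The summed level of 7 T and NK cell markers, 14.9 to 59.1 CPM over the 12 mice, overlapped among the groups, but 4 of the 5 tested rose after ICH in floxed mice, the NK cell genes Klrb1c and Nkg7 among them. Between the genotypes after ICH 0 of 6 passed and 2 had an unadjusted p under 0.05, with log2 fold changes of -2.19 for Klrb1c (edgeR adjusted p = 0.355) and -1.90 for Nkg7 (edgeR adjusted p = 0.354). Spns2 per 1000 CPM of the oligodendrocyte markers was 2.11 to 2.47 CPM in ICH-Fabp4flox/flox and 2.34 to 3.02 CPM in ICH-Fabp4CKO mice. Per 1000 CPM of 8 endothelial markers it was 58.2 to 87.8 and 48.5 to 126 CPM in these groups, and 147 to 187 CPM in sham mice. S1pr1 per 1000 CPM of the endothelial markers was 169 to 391 and 394 to 828 CPM in the ICH groups, and per 1000 CPM of astrocyte markers 28.3 to 34.7 and 29.1 to 38.6 CPM. The sum of the 8 endothelial markers was 526 to 1120 CPM in ICH-Fabp4flox/flox and 280 to 415 CPM in ICH-Fabp4CKO mice, with 229 to 245 CPM in the sham groups, and Acer2 per 1000 CPM of them was 70.3 to 94.2 and 45.8 to 62.1 CPM in the ICH groups. Per 1000 CPM of oligodendrocyte markers Acer2 was 2.29 to 2.93 CPM in ICH-Fabp4flox/flox and 1.49 to 2.21 CPM in ICH-Fabp4CKO mice. Acer2 was chosen by its values in these data, so its ranges are a description only. The 6 pericyte and smooth muscle markers ranged from 376 to 632 CPM in ICH-Fabp4flox/flox and from 224 to 433 CPM in ICH-Fabp4CKO mice. The part of these markers in the differences was not tested.

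Myeloid markers followed Sgpl1 and S1pr2 mouse by mouse. The 7 monocyte and macrophage markers summed to 64.6 to 122 CPM in sham mice, to 3250, 2390 and 1190 CPM in ICH-Fabp4flox/flox mice and to 6720, 1330 and 10900 CPM in ICH-Fabp4CKO mice. All 7 rose after ICH in both genotypes. ICH-Fabp4CKO mice 1 and 3 were the libraries with the most of these markers and with the most Sgpl1 and S1pr2, and ICH-Fabp4CKO mouse 2 and ICH-Fabp4flox/flox mouse 3 had the least of all 3 among the ICH libraries. Against the 6 microglial markers, which summed to 1150 to 1250 CPM in ICH-Fabp4flox/flox and 1310 to 3950 CPM in ICH-Fabp4CKO mice, Sgpl1 varied within a narrower range, with 92.5 to 115 CPM per 1000 CPM in the sham mice, 89.3 to 144 in ICH-Fabp4flox/flox and 101 to 126 in ICH-Fabp4CKO mice. S1pr2 per 1000 CPM of microglial markers was 8.15 to 11.8 CPM in sham and 8.34 to 19.6 CPM in ICH mice. Relative to the monocyte and macrophage markers both genes were lower after ICH, Sgpl1 with 344 to 574 CPM per 1000 CPM in sham and 45.6 to 99.1 in ICH mice and S1pr2 with 32.6 to 54 and 4.78 to 10.6. S1pr3 was set against 6 astrocyte markers, which summed to 2690 to 2920 CPM in sham and 5420 to 7340 CPM in ICH mice. Per 1000 CPM of those, S1pr3 was 2.50 to 3.28 CPM in sham and 9.76 to 25.4 CPM in ICH mice. The 6 markers did not move alike. In floxed mice after ICH 3 rose, Gfap with a log2 fold change of 4.04 beside 3.87 for S1pr3, and 3 did not pass. S1pr3 was chosen by its values in these data, so its ranges are a description only. The 6 neutrophil markers summed to 0.331 to 1.63 CPM in sham, 17.5 to 45.3 CPM in ICH-Fabp4flox/flox, where Ly6g was at 0, and 16.7 to 151 CPM in ICH-Fabp4CKO mice. No marker of the oligodendrocyte, endothelial, astrocyte, microglial and monocyte lists was at 0 in a whole group, and their part in the results was not tested.

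**Figure D4:**
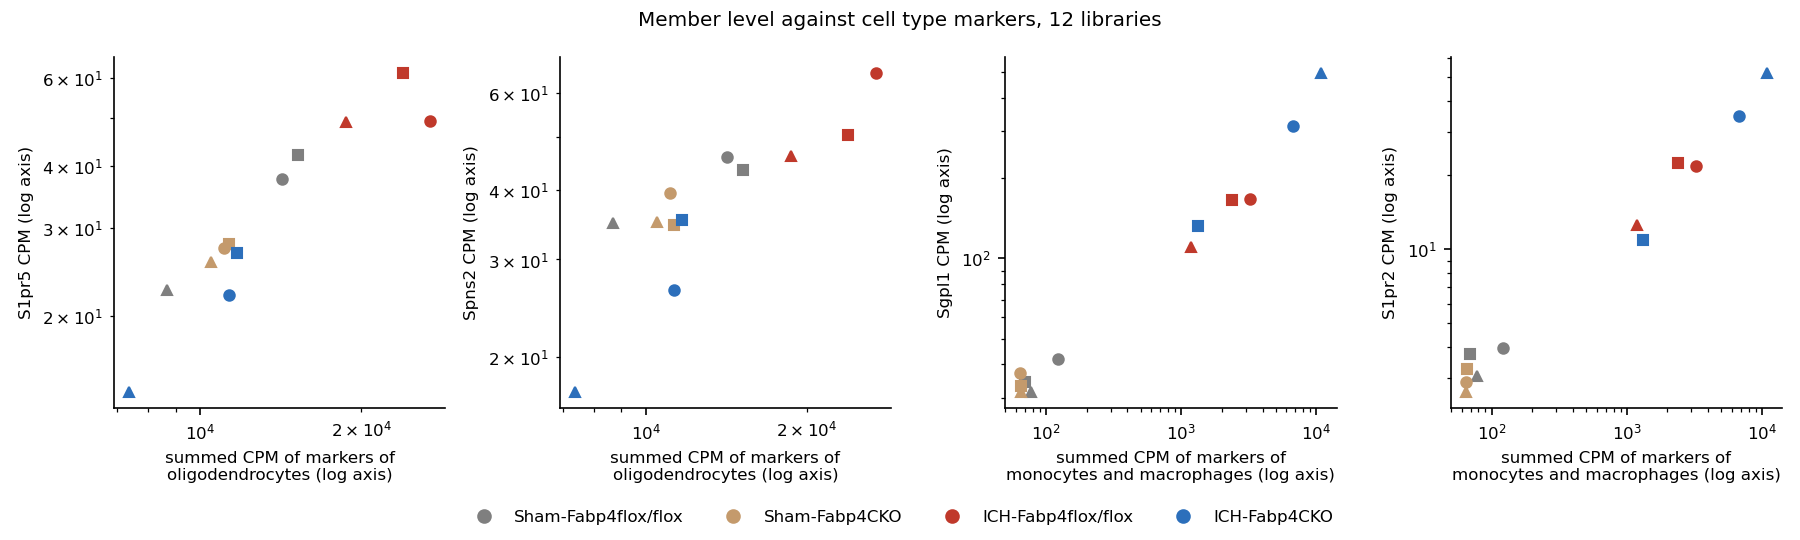
S1pr5 and Spns2 against the summed CPM of 8 oligodendrocyte markers, and Sgpl1 and S1pr2 against the summed CPM of 7 monocyte and macrophage markers, on log axes, with colors for the groups and circles, squares and triangles for mice 1, 2 and 3. In the panels of S1pr5 the ICH-Fabp4CKO mice lie at the lower left with the sham mice, and in those of Sgpl1 and S1pr2 the ICH-Fabp4CKO mice 1 and 3 lie at the upper right.

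Without hemorrhage few genes differed between the genotypes when all 6 libraries were used. Of the 14395 genes tested, 0.111% passed in the edgeR test, all lower in Sham-Fabp4CKO, and none of the 7 tested genes did. None of the 7 had an unadjusted p under 0.05, where 10.2% of all genes did, and DESeq2 called 0 of them. S1pr4, with 4 to 16 counts in the sham libraries, was below the count filter. The differences and their 95% intervals were 0.23 (-0.0143 to 0.481) for S1pr1, -0.30 (-0.776 to 0.171) for S1pr2, -0.34 (-0.844 to 0.156) for S1pr5, -0.79 (-2.46 to 0.885) for Sphk1, 0.09 (-0.138 to 0.326) for Sphk2, -0.19 (-0.483 to 0.0954) for Spns2 and -0.09 (-0.390 to 0.211) for Sgpl1. Without Sham-Fabp4flox/flox mouse 3, 3 genes passed, S1pr1 higher (adjusted p = 0.0137) and S1pr5 (adjusted p = 0.00455) and Spns2 (adjusted p = 0.0475) lower in the knockout, in a fit that called 19.6% of all genes. That mouse had the lowest S1pr5 of its group, 22.6 CPM, and the lowest sum of oligodendrocyte markers, 8680 CPM. Acer2 was lower in each Sham-Fabp4CKO mouse than in any Sham-Fabp4flox/flox mouse, with the floxed mean 2.08 times higher, but the lowest floxed mouse at 6.83 CPM was close to the highest knockout mouse at 6.53 CPM. S1pr3 overlapped, with a log2 difference of 0.10. Over all genes 14.9% had groups apart in this comparison.

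The interaction of ICH and genotype tests whether the response to hemorrhage differed between the genotypes, and no member passed it in edgeR or in DESeq2. Of all 15089 genes 0.0199% passed, and 9.94% had an unadjusted p under 0.05. S1pr5 (log2 difference of responses -1.04, SE 0.369, adjusted p = 0.390) and Spns2 (-0.89, SE 0.346, adjusted p = 0.424) were the 2 members under that unadjusted threshold in the edgeR fit. In both genes the estimated change after ICH was upward in floxed mice and downward in Fabp4CKO mice, and neither change passed in either genotype. Sgpl1 had a larger response in Fabp4CKO mice by 1.12 (SE 0.527, adjusted p = 0.516), which passed at 1.49 (adjusted p = 0.0453) without ICH-Fabp4CKO mouse 2, in a fit that called 371 genes (2.42%). The comparisons share groups of mice and are not independent of each other.

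The enzymes and receptors around these genes were taken in 5 lists. After ICH in floxed mice, 17 of the 60 tested genes rose and 8 fell, 41.7% in all beside 45.6% of all genes, and the median log2 fold change was 0.296. In Fabp4CKO mice 24 rose and 5 fell, 48.3% beside 35.6% of all genes, with a median of 0.274. The counts of each list stand beside 26.2% of all genes higher and 19.3% lower after ICH in floxed mice. In Fabp4CKO mice these shares were 24.5% and 11.1%. Between the genotypes after ICH, 0 of 59 passed in edgeR (9 at an unadjusted p under 0.05, 1 in DESeq2), in sham 0 of 59 passed (8 and 1), and in the interaction 0 of 60 passed (4 and 0).

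Ceramide turnover, which includes the other ceramidases, had 4 genes higher and 2 lower of 16 in floxed mice after ICH. Asah1, the lysosomal acid ceramidase, had CPM of 60.6, 57.4 and 52.1 in sham and 178.5, 142.3 and 115.1 after ICH and rose by 1.38 (adjusted p = 0.00177). Gba2, an enzyme that frees ceramide outside lysosomes, fell by 1.00 on the log2 scale (adjusted p = 0.00910). In Fabp4CKO mice 7 rose and 2 fell of 16, among them Asah1 by 2.38 (adjusted p = 0.0133) and the alkaline ceramidase Acer3 by 0.97 (adjusted p = 0.0230). Acer3 did not pass in floxed mice (0.30, adjusted p = 0.213), and Acer1, the skin ceramidase, had no counts in any library. The lysosomal Asah1, at a mean of 16.7 CPM per kilobase in Sham-Fabp4flox/flox tissue against 1.67 for Acer3 and 1.63 for Acer2, was the main ceramidase transcript of these 3.

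In ceramide synthesis 3 rose and 3 fell of 16 in floxed mice after ICH. Sptssa, a small subunit of serine palmitoyltransferase, rose by 0.86 (adjusted p = 0.00307), and Ormdl2, an inhibitor of that enzyme, rose by 1.303 (adjusted p = 0.00398). Sptlc3, a catalytic subunit of the same enzyme, fell from 11, 23 and 32 counts to 1, 0 and 0 (adjusted p = 0.00475). In Fabp4CKO mice 6 rose and 2 fell, with Sptlc3 at 19, 18 and 18 counts in sham and 0, 2 and 3 after ICH (adjusted p = 0.0185), Sptssb lower by 1.70 (adjusted p = 0.0176) and Ormdl2 higher by 1.47 (adjusted p = 0.0195). Subunits and inhibitors of the first enzyme of synthesis thus moved in both directions.

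Among the genes that remove or carry S1P, the exporter Abcc1 (0.96, adjusted p = 0.0101) and the lipid phosphatase Plpp2 (1.18, adjusted p = 0.0122) rose in floxed mice, 2 of 7. The S1P phosphatase Sgpp1 differed by -0.07 (adjusted p = 0.649), Sgpp2 by -1.07 (adjusted p = 0.0635) and the lipid phosphatase Plpp3 by -0.45 (adjusted p = 0.174). In Fabp4CKO mice Abcc1 (1.21, adjusted p = 0.0190) and Plpp2 (1.33, adjusted p = 0.0195) rose and Sgpp2 fell by 1.43 on the log2 scale (adjusted p = 0.0341). Apom, the S1P carrier of plasma, reached at most 0.131 CPM in a library and was not tested.

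Of 14 genes that couple S1P receptors to the cell, 6 rose and 2 fell in floxed mice after ICH. Gnai2, the Gi subunit through which S1pr1 signals, rose by 1.53 (adjusted p = 0.00111), Arrb2, an arrestin that takes receptors off the membrane, by 1.27 (adjusted p = 0.00238), and Rhoa, the GTPase downstream of S1pr2, by 1.36 (adjusted p = 0.00261). In Fabp4CKO mice 7 rose and 0 fell, among them Gna13, the G protein between S1pr2 and Rhoa, by 1.35 (adjusted p = 0.00964), Gnai2 by 1.35 (adjusted p = 0.0126) and the kinase Rock1 by 1.57 (adjusted p = 0.0125). The 2 genes that fell in floxed mice were Gnai1, another Gi subunit, by 1.15 on the log2 scale (adjusted p = 0.00628), and the Gq subunit Gnaq, by 0.68 (adjusted p = 0.0207), both named after their values were seen. Gi subunits thus moved in both directions.

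**Figure D5:**
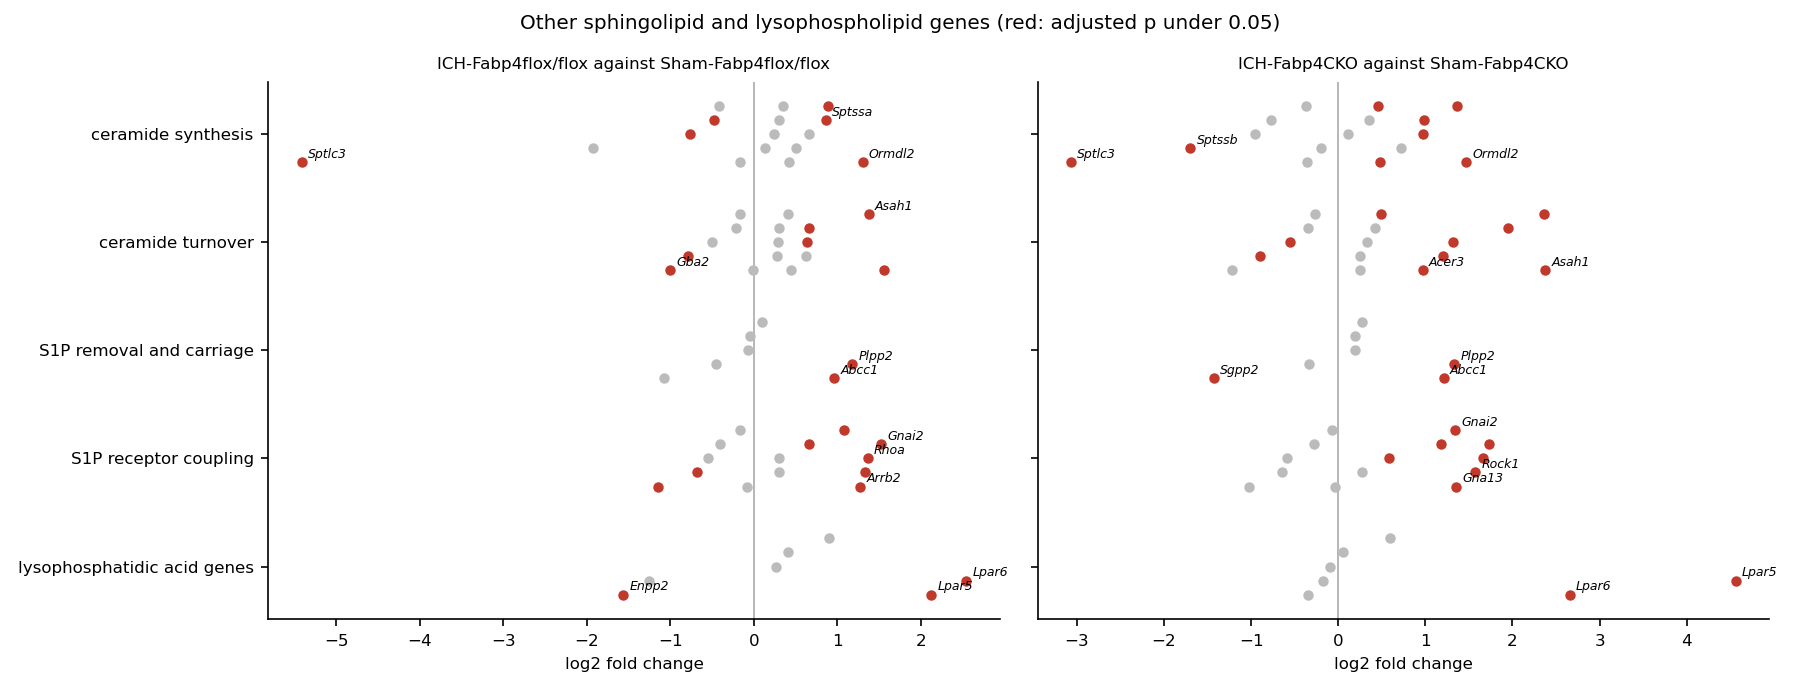
Log2 fold changes after ICH of the tested genes of the 5 lists, in floxed mice on the left and in Fabp4CKO mice on the right, with an adjusted p under 0.05 in red and up to 3 names per list, taken from those with the smallest p. The point of Sptlc3 in floxed mice rests on 0 or 1 counts per ICH library and is no bound on its fold. Most called genes lie to the right of 0 in both panels, 17 of 25 and 24 of 29. Most called genes did so over all genes too, 3862 of 6707 in floxed and 3605 of 5247 in Fabp4CKO mice.

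The genes whose levels were most like those of each member were found by Pearson's correlation of log2 CPM over the 12 libraries, which share the 4 groups and their spread, so the values describe and do not test. S1pr5 was most like the myelin gene Mog (0.989) and Ndrg1 (0.986), and Spns2 was most like Prr18 (0.975), Plekhb1 (0.961) and Cfap36 (0.960). Sgpl1 was most like Tyk2 (0.998), a kinase of cytokine receptors, and Itpripl2 and Mob1a (both 0.997). S1pr2 was most like the cytokine receptor chain Il10rb and Palld (both 0.997) and the interferon receptor chain Ifnar2 (0.996). S1pr1 had looser neighbors, Med25 (0.908), Prex2 (0.899) and Naaa (0.892), and S1pr4, at low counts, had Pidd1 (0.965), Fancd2 (0.948) and Tgfb1i1 (0.948). S1pr3 was most like Pdpn (0.990), Ccl2 (0.988) and Slc14a1 (0.988), a membrane glycoprotein of reactive astrocytes, a chemokine that draws monocytes and a urea transporter, and Acer2 was most like Mat2a (0.988), Cd81 (0.985) and Mecr (0.982). Sphk2 was most like Pfkfb3 (0.988), Mpp1 (0.986) and Actr3 (0.983), and Sphk1 most like Entr1 (0.981) and Tal1 (0.977). Exons of Sphk2 overlap those of Rpl18 over 8.97% and those of Dbp over 13% of their length on the opposite strand (GENCODE M21), and the counting is not stated to use strand, so Sphk2 levels are less certain than those of the other members. The same holds to a lesser degree for Sphk1, of which 4.02% overlaps Gm29292, and for Spns2, of which 3.21% overlaps Mybbp1a.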

How the data were processed

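Poly(A) RNA of each of 12 mice was sequenced. The authors' deposited table holds estimated counts (expected counts) per gene, made from mapped reads and not normalized, for 21956 genes. Per library 7.36% to 8.69% of values were not whole, and all were rounded. The submitters' processing notes name Bowtie2 2.2.8, HISAT2, StringTie 1.3.1 and DESeq2 without roles; the genome build, annotation and counting tool are not given in the sources used here. Totals were 15650813 to 22406216 counts, and the floor of 3 counts covers counting error only.

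Tests were made in R 4.3.3 with edgeR 4.0.16 on the 6 libraries of a pair of groups, or on 12 for the interaction: TMM, filterByExpr (min.count 10, min.total.count 15), quasi-likelihood F-test, Benjamini-Hochberg over all genes tested, threshold 0.05. The fits were tested on simulated data. Few genes were changed there, for ICH in floxed mice 99 by a log2 change of 1 and 100 by 2, among 14597. In the measured data 45.6% of genes were called for ICH in floxed mice and 35.6% in Fabp4CKO mice. The share called when that many genes change was not tested. Of genes given a log2 change of 1, 23 of 99 were called for ICH in floxed mice and 6 of 99 in Fabp4CKO mice. Between the genotypes 2 of 99 were called after ICH and 66 of 99 in sham, and 7 of 99 in the interaction. At a log2 change of 2 these were 87 of 100, 65 of 99, 54 of 98, 91 of 98 and 50 of 99. A lack of calls therefore does not show a lack of difference. Alternatives were DESeq2 1.42.0, other normalizations and filters, a replicate block, 1 fit of all libraries, and leaving out each mouse. CPM used TMM over the 12 libraries, and levels between genes are per kilobase of merged exon of GENCODE M21, matched by Ensembl identifier. Libraries are labelled as separate samples of a group, and p-values measure the spread between these samples. Promoter letters are RefSeq's, GRCm38.p6.

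The 10 genes, the lists and the markers were chosen with earlier results of these data known. Genes named are the 10, Fabp4, the direct neighbors Sgpp1, Sgpp2, Plpp3, Asah1, Acer1, Acer3 and Apom, for each list and comparison the 3 called genes with the smallest p, and for each member the 3 most alike genes, by Pearson's r of log2 CPM with a prior count of 2. Some genes that this rule takes in are not reported here.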

Additional observations from a re-analysis of the deposited data

How the results depend on the processing

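The direction of the 5 genes called in floxed mice after ICH was the same under every alternative that tested them, and S1pr2 and Sgpl1 passed under each alternative run. The other counts moved as follows, in edgeR unless DESeq2 is named. With at least 10 counts required in every library, S1pr4 and Sphk1 were below the filter in floxed mice after ICH and were not tested. S1pr1, S1pr2 and Sgpl1 passed there, in a fit that called 44.3% of all genes. When 1 mouse was left out, 2 to 5 of the 8 genes passed in floxed mice after ICH, beside 28% to 54.7% of all genes. S1pr1 lost its call with relative log expression normalization (adjusted p = 0.0584), total counts, no mitochondrial genes or no filter on low counts. In Fabp4CKO mice after ICH, 0 to 6 of the genes and 0 to 48 of the list genes passed when 1 mouse was left out, and 5.03% to 67.5% of all genes did. Between the genotypes after ICH, DESeq2 called 1 gene and 1 list gene and the fit of all 12 libraries called 2 genes. Between the sham genotypes, DESeq2 called 1 list gene, and leaving out 1 mouse gave 0 to 3 genes and 0 to 13 list genes, the highest without Sham-Fabp4flox/flox mouse 3, where 19.6% of all genes passed (0% to 0.131% without another mouse). In the interaction, leaving out 1 mouse gave 0 to 1 genes and 0 to 1 list genes, with at most 2.42% of all genes. Over all genes DESeq2 called 578 where edgeR called 0 between the genotypes after ICH, 150 against 16 in sham and 266 against 3 in the interaction.

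Values that changed sign were all far from the threshold. The difference of S1pr1 between the genotypes after ICH was -0.01 with relative log expression normalization and with DESeq2 (-0.01497 and -0.01487), -0.04378 with total counts, -0.04434 without mitochondrial genes, -0.007764 with the replicate block, -0.0461 in the fit of all 12 libraries, and -0.1107 to 0.1376 when 1 mouse was left out. With 1 mouse left out, Sphk1 ranged from -0.9264 to 0.5262 between the genotypes after ICH (the highest without ICH-Fabp4flox/flox mouse 1), from -1.387 to 0.2755 in sham (the highest without Sham-Fabp4flox/flox mouse 1) and from -0.7757 to 1.301 in the interaction, Sgpl1 from -0.1817 to 0.03522 in sham and Sphk2 from -0.01492 to 0.3978 in the interaction. The cause was not tested.

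Mice with the same number were not shown to be paired: the correlation of their deviations was 0.197, 0.0228 and 0.127 for hemorrhage in floxed mice, and 5 of 6 libraries there were most like their own number, which is a hint from the data only. Between the genotypes after ICH 1 of 6 was, with correlations of 0.311, -0.168 and -0.575. Between the sham genotypes and for hemorrhage in Fabp4CKO mice 0 of 6 were. With the number as a replicate block, 6 genes passed in floxed mice after ICH, 3 in Fabp4CKO mice, and 0 between the genotypes after ICH, in sham and in the interaction, and 28, 23, 0, 0 and 0 list genes did. Of all genes 49.3%, 25%, 0%, 0.0764% and 0.00663% passed in these fits. With 3 mice a group, S1pr4 and Sphk1 rest on counts as low as 4 and 6.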

Other observations

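Lysophosphatidic acid is a lipid mediator related to S1P with receptors of its own. Of its 7 genes 2 rose and 1 fell after ICH in floxed mice, and 2 rose and 0 fell in Fabp4CKO mice. Lpar6, a receptor coupled to G12/13, had CPM of 4.83, 3.54 and 4.52 in Sham-Fabp4flox/flox and 30.2, 22.2 and 22.2 in ICH-Fabp4flox/flox mice and rose by 2.55 on the log2 scale (edgeR adjusted p = 0.000381). In Fabp4CKO mice it rose by 2.66 (edgeR adjusted p = 0.00943), with 9.65 CPM in ICH-Fabp4CKO mouse 2 and 27.1 and 28.1 CPM in mice 1 and 3. Lpar5, a receptor found on microglia, had 10, 4 and 2 counts in Sham-Fabp4flox/flox, 5, 2 and 4 in Sham-Fabp4CKO, 10, 30 and 21 in ICH-Fabp4flox/flox and 54, 31 and 131 in ICH-Fabp4CKO mice, and passed after ICH in floxed (edgeR adjusted p = 0.0309) and Fabp4CKO mice (edgeR adjusted p = 0.00886). Enpp2, the autotaxin that makes lysophosphatidic acid, fell by 1.57 on the log2 scale in floxed mice after ICH (edgeR adjusted p = 0.00921). Its levels were 604 to 1454 CPM in Sham-Fabp4flox/flox, 269 to 309 CPM in Sham-Fabp4CKO, 261 to 398 CPM in ICH-Fabp4flox/flox and 180.5 to 272 CPM in ICH-Fabp4CKO mice, so the floxed sham mice stood apart from the other 3 groups. The difference of Enpp2 between the sham genotypes was -1.82 (SE 0.281) and did not pass (edgeR adjusted p = 0.127).

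Of the other marker lists, the 6 neuronal markers summed to 3830 to 4750 CPM in sham and 1030 to 3440 CPM in ICH mice, and the 6 striatal projection neuron markers to 1030 to 3790 and 883 to 2770 CPM. The 3 markers of oligodendrocyte precursors summed to 174 to 213 CPM in sham and 215 to 359 CPM in ICH mice. The 3 B cell markers reached at most 1.55 CPM. The 5 erythroid markers ranged from 17.3 to 165 CPM in sham and from 122 to 1120 CPM in ICH mice.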
